A study of Mus musculus with 37 samples.

Results

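The genes described here are the maternal DNA methylation machinery of the mouse oocyte: Dnmt1 and Uhrf1, Dnmt3a, Dnmt3b and Dnmt3l, Tet2 and Tet3, and Dppa3 and Zfp57. They were chosen by name, as genes of known roles in this process, and make up 9 of the 54752 genes and 82 of the 138835 transcripts listed. DNA methylation is copied after replication by the maintenance enzyme Dnmt1, which Uhrf1 recruits to hemimethylated sites, and it is set anew in growing oocytes, maternal imprints included, by Dnmt3a with its cofactor Dnmt3l. After fertilization, methylated cytosine is oxidised by Tet enzymes, mainly Tet3, while Dppa3 shields the maternal genome and Zfp57 holds methylation at imprinted regions. All these proteins or their mRNAs are supplied to the embryo by the egg.

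RNA was measured in 37 single oocytes of C57BL/6 females aged 6 to 8 weeks and primed with pregnant mare serum gonadotropin. Batch A held 6 oocytes at the germinal vesicle (GV) stage, arrested in prophase, and 6 at metaphase II (MII), which had matured in the animal after human chorionic gonadotropin and were collected from the oviduct. Batch B held 10 GV oocytes and 15 oocytes at metaphase I (MI), which came from GV oocytes matured in culture. GV oocytes of either batch were taken from the ovary, and zona and polar body were removed before lysis. Libraries followed Smart-seq2, which primes on poly(A) tails, so the values describe polyadenylated RNA. The question was which RNAs differ between stages, and it was asked within each batch, because MI and MII oocytes never shared a batch. Batch, stage and maturation in culture or in the animal cannot be told apart between MI and MII.

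The total expected count of a library ran from 7509875 to 12648629 in GV and 9930485 to 13988444 in MII oocytes of batch A, and from 7184205 to 17724506 in GV and 2709280 to 19390128 in MI oocytes of batch B. Several libraries stood apart from their group. The library of MII oocyte 1 held 29816 genes with at least 1 count, while the rest of its group held 19574 to 22598. The shallowest library, MI oocyte 15, held 12654 such genes, while the rest of its group held 15697 to 19550. In MI oocytes 4, 8 and 9 the HTSeq total was low against the RSEM total, with ratios from 0.529 to 0.648, whereas the other MI oocytes gave 0.877 to 1.39. The labels name no animal for any oocyte, so p-values measure only the spread between these oocytes.

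All 10 oocyte markers were detected in every group, and Gdf9 was the most abundant of them. Their summed level ran from 9468 to 17140.3 CPM (counts scaled to the library total, with TMM factors) in GV and 7085 to 8961 CPM in MII oocytes of batch A. In batch B it ran from 3058 to 5837 CPM in GV and 2895 to 5026 CPM in MI oocytes. The 13 cumulus and granulosa markers summed to between 8.52 and 51.4 CPM over the 37 oocytes, and Cyp19a1 held most of this, with group means from 13.7 to 17.5 CPM. Ptx3 was at 0 in GV oocytes of batch A, Amh, Foxl2 and Ptx3 were at 0 in GV oocytes of batch B, and Amh, Foxl2, Ptx3 and Fst were at 0 in MI oocytes. The 6 blood and immune markers summed to at most 5.46 CPM except in MII oocyte 1, which had 14.1 CPM, and Cd68 led them in batch A and Hbb-bs in batch B, with Cd74 and Lyz2 at 0 in every group but MII. The 4 embryo genes of the major genome activation summed to at most 7.71 CPM, led by Zscan4d in batch A and Zscan4c in batch B, and none of them was at 0 in a whole group. The part of these RNAs in the results on the members was not tested.

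Compared per transcript length, in TPM (counts divided by transcript length and scaled to the same sum in every library), 7 members were abundant, and Dnmt3b and Tet2 were lower, though above 61.3% of the detected genes or more in every group. In GV oocytes of batch A the order of mean TPM was Dppa3 (1286), Zfp57 (854), Dnmt1 (562), Uhrf1 (229), Dnmt3a (125), Tet3 (102), Dnmt3l (75.7), Dnmt3b (3.06) and Tet2 (2.35). Dppa3 exceeded Zfp57 in 4 of these 6 oocytes and Dnmt3a exceeded Tet3 in 3 of 6, so these neighbours did not differ beyond their spread, whereas Dnmt1 exceeded Uhrf1 in 6 of 6. The maternal supply of Dppa3 RNA had a higher mean TPM than 99.8% of the genes detected in that group. At MII the order was Dppa3 (762), Zfp57 (604), Dnmt1 (230.4), Uhrf1 (208), Tet3 (130.3), Dnmt3a (129.95), Dnmt3l (58.3), Dnmt3b (3.27) and Tet2 (2.85). Dnmt1 exceeded Uhrf1 in 4 of 6 MII oocytes and Tet3 exceeded Dnmt3a in 3 of 6. The higher MII mean of Dnmt1 than of Uhrf1 rests on the short noncoding Dnmt1-205, whose mean share of the Dnmt1 level was 12.3%. The place of Dnmt3a rests in part on Dnmt3a-217, a transcript of 814 nt with no exonic base of its own. Its mean share of the Dnmt3a level was 30.3% in GV and 45.5% in MII oocytes of batch A.

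In batch B, normalised separately, Dnmt1 had the highest mean TPM, which in GV oocytes rests on the short noncoding Dnmt1-205. The GV means were 832 TPM for Dnmt1, 610 TPM for Dppa3, 528 TPM for Zfp57, 146 TPM for Uhrf1, 121 TPM for Tet3, 71.0 TPM for Dnmt3a, 41.4 TPM for Dnmt3l, 3.27 TPM for Tet2 and 2.50 TPM for Dnmt3b. Of this GV mean of Dnmt1, 326 TPM came from Dnmt1-205, which no base of its own tells apart from other Dnmt1 transcripts, and the rest was below the means of Dppa3 and Zfp57. Dnmt1 exceeded Dppa3 in 6 of 10 GV oocytes and Dppa3 exceeded Zfp57 in 8 of 10. The MI means were 1059 TPM for Dnmt1, 511 TPM for Zfp57, 479 TPM for Dppa3, 141 TPM for Uhrf1, 140.3 TPM for Tet3, 61.1 TPM for Dnmt3a, 37.2 TPM for Dnmt3l, 3.85 TPM for Tet2 and 2.98 TPM for Dnmt3b. Dnmt1-205 made up 515 TPM of the MI mean of Dnmt1, and the rest was near the mean of Zfp57, within the spread of both. With Dnmt1-205, Dnmt1 exceeded Zfp57 in 15 of 15 MI oocytes, while Zfp57 and Dppa3, with 8 of 15, and Uhrf1 and Tet3, with 9 of 15, did not differ beyond their spread.

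**Figure D1:**
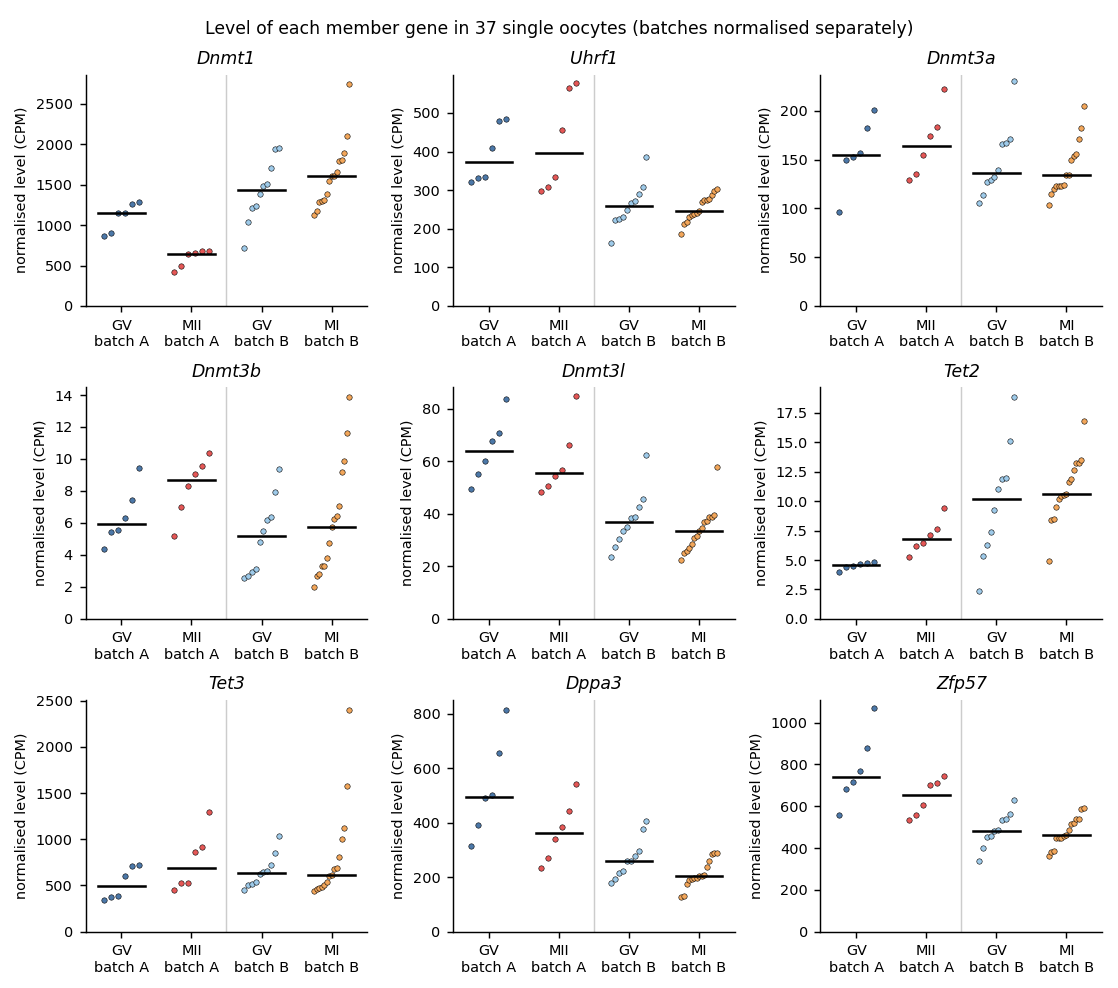
Level of each member in every oocyte, in CPM after normalisation within the batch (vertical axis, from 0), by stage and batch (horizontal axis); points are oocytes and bars are medians. The 6 MII oocytes lie below the 6 GV oocytes of batch A for Dnmt1 and above them for Tet2, and the groups overlap in every other panel.

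Between GV and MII oocytes of batch A, 2 of the 9 members passed the test (edgeR, adjusted p below 0.05), Dnmt1 as lower and Tet2 as higher (Tet2 turns to lower, without passing, with spike-in scaling), against 20.6% of the 12929 genes tested, 11.5% lower and 9.06% higher. None passed with a fold change over 2, the study's second criterion, which 8.47% of the genes met. The same 2 members had groups that did not overlap in CPM with TMM factors, as 9.78% of all genes did; without TMM factors those of Tet2 overlapped. Spike-in counts came to 0.595% to 1.49% of the library total in GV and 0.989% to 1.42% in MII oocytes, ranges that overlapped. With spike-in scaling 144 genes passed as higher and 5452 as lower, 43.3% of those tested, and 4 members passed, all of them lower. The median log2 change without it was 0.09 over the members and 0.01 over all genes tested. At an unadjusted p below 0.05, 3 members and 4441 genes passed.

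Dnmt1, the maintenance methyltransferase (ENSMUSG00000004099.16, chr9:20907209-20959888, minus strand, mm10), was at 865, 1149.95 and 1287 CPM (lowest, median and highest) in the 6 GV oocytes of batch A. In the 6 MII oocytes it was at 417, 647 and 684 CPM. Every MII oocyte lay below the lowest GV oocyte, and MII oocyte 3 was the lowest of all. The means were 1102 ± 179.9 CPM (SD, n = 6) and 593 ± 112 CPM (SD, n = 6), and Dnmt1 fell by 0.89 on the log2 scale (SE 0.16, 95% confidence interval −1.22 to −0.56, edgeR adjusted p = 0.00102), a ratio of 0.539. With the spike-in counts as the library size, which moved the median log2 change of all genes to −0.72, the change was −1.64.

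In batch B, Dnmt1 was at 717, 1430.1 and 1959 CPM in the 10 GV oocytes and at 1124, 1605 and 2745 CPM in the 15 MI oocytes. The groups overlapped: GV oocyte 7 was the lowest and MI oocyte 6 the highest, and 9 of 15 MI oocytes lay above the GV mean. The log2 change was 0.20 (95% confidence interval −0.10 to 0.49, edgeR adjusted p = 0.674), so a fall of the size seen at MII lies outside the interval. Tested directly, the MII change minus the MI change was −1.02 on the log2 scale for Dnmt1 (SE 0.24, 95% confidence interval −1.51 to −0.54, edgeR adjusted p = 0.00768). Of the 9 members, 1 passed this test, against 5.46% of 15083 genes, 2.36% lower and 3.1% higher, and 1 passed with a difference over 2-fold, against 4.03%. Dnmt1 also passed without MII oocyte 1, where 512 genes passed in place of 823, and with HTSeq counts, where 119 passed as higher and 200 as lower.

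Dnmt1 has 7 annotated transcripts, of which 4 held at least 10% of its transcript level in some group. Dnmt1-202 starts at an upstream first exon (chr9:20959733-20959888, minus strand), has its start codon at 20941454 and encodes 1501 residues, beginning at residue 119 of the longest form, as is known of the oocyte form of the enzyme. Dnmt1-201 starts at chr9:20952708-20952979, has its start codon at 20952787 and encodes the longest form, of 1620 residues. Dnmt1-205 is a noncoding processed transcript of 607 nt over 9 exons that shares the region of the first exon of Dnmt1-201, and Dnmt1-204 is a retained-intron transcript of 1252 nt over the 3′ end of the gene. The starts of both coding sequences are shown, 30 bases each from the annotated transcripts, because the start codons, in capitals, set these protein forms apart:
Dnmt1-201: ATGccagcgcgaacagctccagcccgagtg
Dnmt1-202: ATGgcagactcaaatagatccccaagatcc

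Dnmt1-202 was the most abundant Dnmt1 transcript in batch A, with shares of 43.7%, 47.9% and 59.9% of the Dnmt1 transcript level in GV oocytes (lowest, median and highest) and 51.2%, 54.6% and 59.2% in MII oocytes. These ranges overlapped, and the difference in mean share, 49.0% against 54.7%, did not pass (exact permutation p = 0.0693, adjusted p = 0.225). The retained-intron Dnmt1-204 held 19.3%, 35.0% and 40.6% in GV oocytes and 2.51%, 9.68% and 15.2% in MII oocytes. No MII oocyte reached the lowest GV oocyte, and the mean share fell from 33.8 ± 7.56% to 9.45 ± 4.30% (SD, n = 6 each, exact permutation p = 0.00216, the smallest that 924 assignments allow, adjusted p = 0.0188).

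The short noncoding Dnmt1-205 held 0, 0.331% and 3.78% in GV oocytes of batch A and 4.23%, 12.2% and 19.7% in MII oocytes. Every MII oocyte lay above the highest GV oocyte (means 0.846% and 12.3%, exact permutation p = 0.00216, adjusted p = 0.0188). The full-length Dnmt1-201 held 14.3%, 15.8% and 20.01% in GV oocytes and 19.3%, 23.8% and 25.7% in MII oocytes. These ranges overlapped slightly, and the mean share rose from 16.2% to 23.2% (exact permutation p = 0.00433, adjusted p = 0.0281), and without MII oocyte 1 the difference was of like size, 7.08 percentage points, but did not pass (adjusted p = 0.0541). In all, 4 of 26 transcript shares of the members passed in batch A, 3 of them of Dnmt1. Those 3 depend on each other, since a fall of 1 share of a gene raises its other shares. The share of Dnmt1-201 rose although its level did not (log2 change −0.56). Shares of other genes were not tested, so no background is given. As shares of counts, not divided by length, the difference of Dnmt1-204 was −8.37 percentage points and that of Dnmt1-201 was 6.33 (adjusted p = 0.0188 for each). That of Dnmt1-202 was 0.287 as shares of counts (exact permutation, adjusted p = 0.950), against 5.75 per length. Dnmt1-205 had no value there, since it stayed below a share of 10% of counts: its mean was 15.2 counts in GV and 96.2 counts in MII oocytes, and its share per length rests on dividing these few counts by a short length.

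As levels rather than shares, 4 of 29 member transcripts tested passed in batch A (edgeR), 2 lower and 2 higher, against 9.3% of 22461 transcripts, 5.81% lower and 3.49% higher, and 2 of them with a fold change over 2, against 5.57%. With spike-in scaling, which moved the median of all transcripts to −0.69, 116 transcripts passed as higher and 5026 as lower, and neither of the higher members, Dnmt3a-217 and Zfp57-211, passed. Dnmt1-204 had a mean of 1297 counts in GV and 176 counts in MII oocytes and fell by 2.82 on the log2 scale (SE 0.39, adjusted p = 0.000807). Dnmt1-202 had means of 8148 and 4086 counts and fell by 0.90 (SE 0.17, adjusted p = 0.00527). Both coding forms were thus lower in mean count, since Dnmt1-201 had means of 2745 and 1762 counts, a log2 change of −0.56 that missed the threshold by edgeR (adjusted p = 0.0600) and passed with DESeq2 (0.0220) and with spike-in scaling (−1.30, adjusted p = 0.00723). Dnmt1-205 had a log2 change of 2.53 that missed it too (adjusted p = 0.0960), and passed with DESeq2 (adjusted p = 0.0272). With spike-in scaling its change was 1.42 and did not pass (edgeR adjusted p = 0.298).

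In batch B, Dnmt1-205 held 16.2%, 37.8% and 53.9% in GV oocytes and 24.0%, 46.5% and 72.9% in MI oocytes. The ranges overlapped, and the means of 35.0% and 46.0% did not pass (permutation p = 0.0486, adjusted p = 0.657). Dnmt1-202 held 24.5%, 38.0% and 49.0% in GV oocytes and 15.4%, 31.7% and 44.4% in MI oocytes, and Dnmt1-201 held means of 20.1% and 17.7%. Dnmt1-204 had a median of 4.07% in GV and 2.00% in MI oocytes, with a high value of 26.1% in GV oocyte 7 and of 21.4% in MI oocyte 1. The shares of Dnmt1-204 and Dnmt3a-217 were not tested in batch B, since their means there were below the mean share required for a test. None of the 27 member shares tested passed in batch B by the permutation test (100000 permutations). None of 29 member transcripts passed either by edgeR, as none of 22717 transcripts did; 1 member transcript, Dppa3-201, and 1615 transcripts had an unadjusted p below 0.05, and DESeq2 passed 120 transcripts and no member.

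RSEM divides reads among transcripts by the bases that tell them apart. Dnmt1-204 has 536 exonic bases found in no other Dnmt1 transcript, Dnmt1-202 has 156 and Dnmt1-201 has 134, but Dnmt1-205 has 0, so its share rests on which exons were joined and is uncertain. Counted by protein start, transcripts that begin at an internal start codon held 49.1% of the Dnmt1 level in GV and 55.0% in MII oocytes of batch A, and 38.6% in GV and 32.3% in MI oocytes of batch B. Those that begin at the start of the longest protein held 16.2%, 23.2%, 20.1% and 17.7%.

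**Figure D2:**
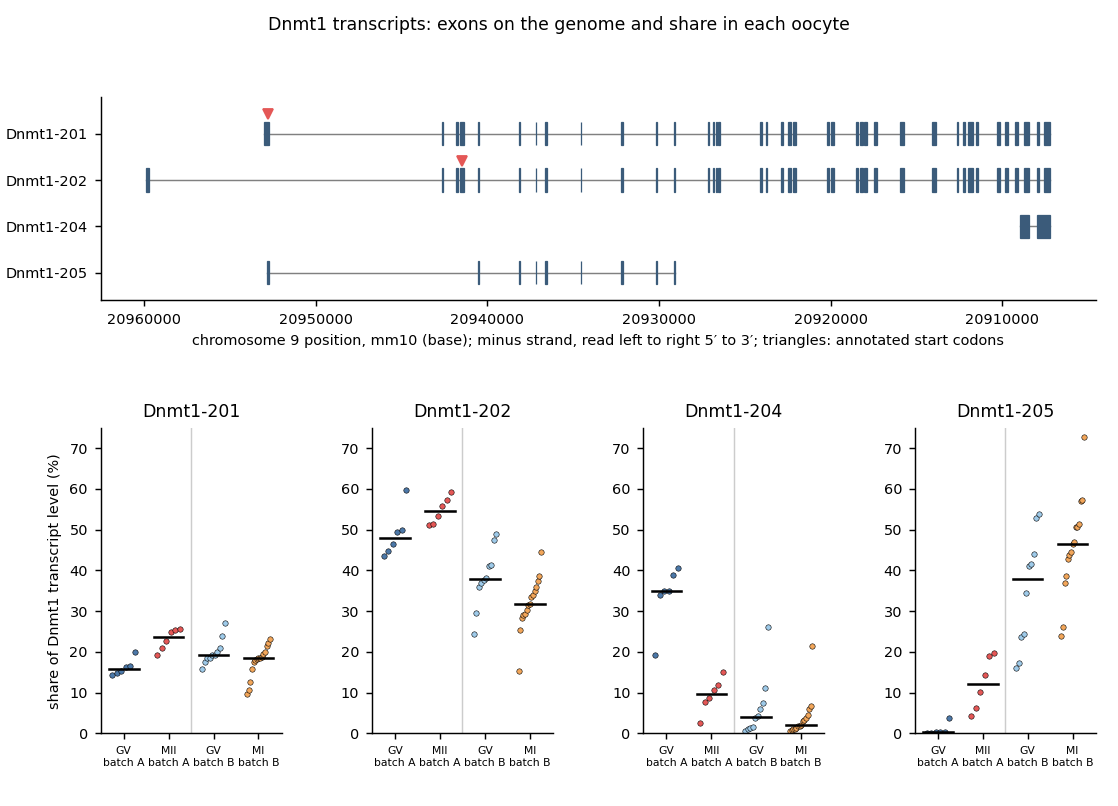
Upper panel: exons (boxes) of 4 Dnmt1 transcripts on chromosome 9 of mm10, drawn 5′ to 3′ from left to right with annotated start codons as triangles. Lower panels: the share of the Dnmt1 transcript level held by each transcript (percent, vertical axis) in every oocyte by stage and batch, with bars at the median; Dnmt1-204 and Dnmt1-205 do not overlap between GV and MII oocytes of batch A.

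Uhrf1, which binds hemimethylated DNA and recruits Dnmt1 (ENSMUSG00000001228.14, chr17:56303321-56323486, plus strand), was at 322, 372 and 484 CPM in GV and 298, 396 and 579 CPM in MII oocytes of batch A. In batch B it was at 163, 258 and 385 CPM in GV and 186, 245 and 304 CPM in MI oocytes. The groups overlapped in both batches, with 2 MII oocytes above and 2 below the whole GV range. The log2 changes were 0.11 at MII (95% confidence interval −0.29 to 0.51, edgeR adjusted p = 0.734; −0.63 with spike-in scaling, adjusted p = 0.0667) and −0.05 at MI (−0.28 to 0.18, adjusted p = 0.927). Uhrf1-202 held the largest share in batch A, with means of 52.3% and 52.6%, ahead of Uhrf1-204 with 34.8% and 35.2% and Uhrf1-201 with 11.9% and 11.2%. In batch B Uhrf1-201 was ahead, with means of 49.6% and 48.5%, followed by Uhrf1-202 with 28.5% and 27.3% and Uhrf1-204 with 19.9% at either stage. All 3 share the start codon at 56305098, and Uhrf1-202 encodes 774 residues where Uhrf1-201 and Uhrf1-204 encode 782.

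Among the de novo genes, none passed in either batch, but with spike-in scaling, which lowers the median of all genes by 0.72, Dnmt3l passed as lower at MII (−0.82, adjusted p = 0.0152) and Dnmt3a (−0.62) and Dnmt3b (−0.39) turned to lower without passing. Dnmt3a, the catalytic enzyme that methylates the growing oocyte's genome (ENSMUSG00000020661.15, chr12:3806007-3914443, plus strand), was at 95.9, 155 and 201 CPM in GV and 129, 164 and 223 CPM in MII oocytes of batch A. It was at 105, 136 and 231 CPM in GV and 104, 134 and 205 CPM in MI oocytes of batch B. All groups overlapped, and the log2 changes were 0.09 at MII (95% confidence interval −0.28 to 0.46) and −0.07 at MI (−0.33 to 0.19). Dnmt3l, its cofactor without catalytic activity (ENSMUSG00000000730.13, chr10:78041947-78063622, plus strand), was at 49.6, 63.9 and 83.8 CPM in GV and 48.1, 55.4 and 85.0 CPM in MII oocytes, with a log2 change of −0.10 (−0.46 to 0.25). In batch B Dnmt3l was at 23.7, 36.7 and 62.4 CPM in GV and 22.5, 33.4 and 57.9 CPM in MI oocytes, with a log2 change of −0.15 (−0.47 to 0.17). In each batch the ranges of Dnmt3l overlapped, with 1 MII oocyte below and 1 above the whole GV range, and 1 MI oocyte below it.

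Dnmt3b, the other catalytic de novo enzyme (ENSMUSG00000027478.15, chr2:153649450-153687730, plus strand), was scarce, with group means from 5.13 CPM in GV oocytes of batch B to 8.24 CPM in MII oocytes. It was detected in all 37 oocytes. Its lowest and highest values were 4.34 and 9.43 CPM in GV and 5.19 and 10.3 CPM in MII oocytes of batch A, and 2.53 and 9.34 CPM in GV and 1.98 and 13.9 CPM in MI oocytes. The groups overlapped, and the log2 changes of 0.36 at MII (95% confidence interval −0.16 to 0.88) and 0.28 at MI (−0.38 to 0.93) did not pass. Each of its 12 transcripts was represented by few reads, with at most 44.3 counts on average in any group, so its transcript shares were not resolved at this depth.

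Most of the Dnmt3a transcript level came from transcripts that begin at an internal start codon, among them Dnmt3a-205, which encodes a shorter form of 689 residues from residue 220 of the longest protein. Dnmt3a-217 has the same start codon but an annotated protein of 181 residues. The starts of both coding sequences are shown, 30 bases each, because the start codons, in capitals, separate the forms: Dnmt3a-205 starts at 3895573 and Dnmt3a-218, of 908 residues, at 3835198 on chromosome 12.
Dnmt3a-205: ATGaatgctgtggaagagaaccaggcctct
Dnmt3a-218: ATGccctccagcggccccggggacaccagc

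Dnmt3a-205 held means of 47.6% in GV and 38.6% in MII oocytes of batch A, and 44.5% in GV and 43.4% in MI oocytes of batch B. Dnmt3a-217, a shorter fragment of 814 nt that has the same start codon, held 24.9%, 29.9% and 33.6% in GV and 34.9%, 47.0% and 52.5% in MII oocytes of batch A. Each MII oocyte lay above every GV oocyte, and its mean share rose from 30.3 ± 3.20% to 45.5 ± 6.05% (SD, n = 6 each, exact permutation p = 0.00216, adjusted p = 0.0188). As a level it had means of 174 and 294 counts and a log2 change of 0.86 (SE 0.24, edgeR adjusted p = 0.0387), which missed the threshold without MII oocyte 1 (0.79, adjusted p = 0.0856), without a low-count filter (0.81, adjusted p = 0.147) and with spike-in scaling (0.15, adjusted p = 0.727). As a share of counts, not divided by length, its difference was 7.68 percentage points (adjusted p = 0.0188). Dnmt3a-217 has no exonic base of its own among the annotated Dnmt3a transcripts, and its first exon (chr12:3894869-3895108, plus strand) lies within that of Dnmt3a-209, so its level is uncertain.

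Transcripts from an internal start made up 80.2% of the Dnmt3a level in GV and 86.5% in MII oocytes of batch A, and 59.2% in GV and 59.3% in MI oocytes of batch B. The totals of batch A include the fragment Dnmt3a-217, with 30.3% and 45.5%, while Dnmt3a-205 held 47.6% and 38.6%. In batch B the long form Dnmt3a-218 held means of 26.9% and 27.8%, Dnmt3a-203 held 14.3% and 15.5%, and Dnmt3a-210 held 11.9% and 9.38%. Dnmt3a also shares 133 exonic bases with its antisense gene Dnmt3aos, and Dnmt3l shares 67 with Aire, on the opposite strand; Smart-seq2 does not keep strand, so reads there cannot be told apart. For Dnmt3l, Dnmt3l-205, whose first exon lies at chr10:78042287-78042388 upstream of the other coding transcripts, was the main transcript, with means of 59.5% and 71.0% in batch A and 67.3% and 69.8% in batch B. Dnmt3l-208 held 18.6%, 15.8%, 21.7% and 13.6%, and Dnmt3l-201 held 12.7% in GV oocytes of batch A.

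Tet3, the oxidase of the zygote (ENSMUSG00000034832.15, chr6:83362373-83459084, minus strand), was the abundant Tet RNA. It was at 343, 495 and 723 CPM in GV and 455, 692 and 1292 CPM in MII oocytes of batch A. In batch B it was at 449, 638 and 1038 CPM in GV and 439, 612 and 2402 CPM in MI oocytes. The groups overlapped, with 3 of 6 MII oocytes above the highest GV oocyte, and the top MI value came from oocyte 15, the shallowest library. The log2 changes were 0.54 at MII (95% confidence interval −0.02 to 1.10, edgeR adjusted p = 0.158) and 0.34 at MI (−0.14 to 0.81, adjusted p = 0.646), and with spike-in scaling the MII value turned to −0.23. Without MI oocyte 15 the MI value was 0.13. Tet3-202, which begins at residue 136 of the longest form, held 90.6% and 85.9% in batch A and 88.4% at either stage of batch B. The longest form, Tet3-203, held 10.2% and 9.71% in batch B.

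Tet2, a related oxidase (ENSMUSG00000040943.12, chr3:133463679-133545139, minus strand), was scarce. It was at 3.97, 4.56 and 4.87 CPM in GV and 5.29, 6.81 and 9.43 CPM in MII oocytes of batch A. All 6 MII oocytes lay above all 6 GV oocytes in these values, but without TMM factors the groups overlapped, with GV oocytes up to 5.85 CPM and MII oocytes from 5.44 CPM, and they overlapped in TPM (GV 1.48 to 3.66, MII 2.17 to 3.73). Tet2 rose by 0.64 on the log2 scale (SE 0.22, 95% confidence interval 0.17 to 1.10, edgeR adjusted p = 0.0489), while spike-in scaling turned the sign to −0.09, against −0.72 for the median of all genes. The call was near the threshold: it was lost when any single oocyte other than MII oocyte 2 was left out, with adjusted p from 0.0413 to 0.115 over the 12 fits. In batch B Tet2 was at 2.40, 10.2 and 18.9 CPM in GV and 4.94, 10.6 and 16.8 CPM in MI oocytes, and the log2 change was 0.16 (−0.33 to 0.64). The MI range lay within the GV range, and no transcript of Tet2 averaged more than 66.2 counts in any group. Tet2 shares 43 exonic bases with the antisense gene Gm42567.

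Dppa3, which protects the maternal genome after fertilization (ENSMUSG00000046323.8, chr6:122626410-122630272, plus strand), was at 315, 496 and 816 CPM in GV and 235, 363 and 544 CPM in MII oocytes of batch A. In batch B it was at 180, 260 and 405 CPM in GV and 128, 204 and 289 CPM in MI oocytes. The stages overlapped in each batch, with 2 of 6 MII and 3 of 15 MI oocytes below the lowest GV oocyte. The log2 changes were −0.52 at MII (95% confidence interval −1.01 to −0.03, edgeR adjusted p = 0.125) and −0.34 at MI (−0.63 to −0.04, adjusted p = 0.360), and neither passed after adjustment; with spike-in scaling the MII value was −1.31 (adjusted p = 0.000974). Dppa3-201 held 93.6% and 86.4% in batch A and 95.9% and 96.5% in batch B, and Dppa3-202 held the rest.

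Zfp57, the zinc-finger protein that keeps imprints methylated (ENSMUSG00000036036.15, chr17:37001163-37010635, plus strand), was at 557, 741 and 1071 CPM in GV and 535, 654 and 744 CPM in MII oocytes of batch A. In batch B it was at 337, 483 and 630.1 CPM in GV and 362, 464 and 594 CPM in MI oocytes. The stages overlapped, and all 6 MII oocytes lay below the GV mean, 2 of them below the lowest GV oocyte. The log2 changes were −0.28 at MII (95% confidence interval −0.60 to 0.05, edgeR adjusted p = 0.221) and −0.03 at MI (−0.24 to 0.18), and spike-in scaling gave −0.96 at MII (adjusted p = 0.000735). Zfp57-201 held 73.6% and 71.5% in batch A and 71.7% and 73.2% in batch B, and Zfp57-202 held 21.9% to 23.6%. A minor transcript, Zfp57-211, named after its value was seen, had a log2 change of 1.05 at MII (SE 0.27, edgeR adjusted p = 0.0300), which missed the threshold without MII oocyte 1 (0.91, adjusted p = 0.0713), with spike-in scaling (0.31, adjusted p = 0.563) and without a low-count filter (adjusted p = 0.0933).

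**Figure D3:**
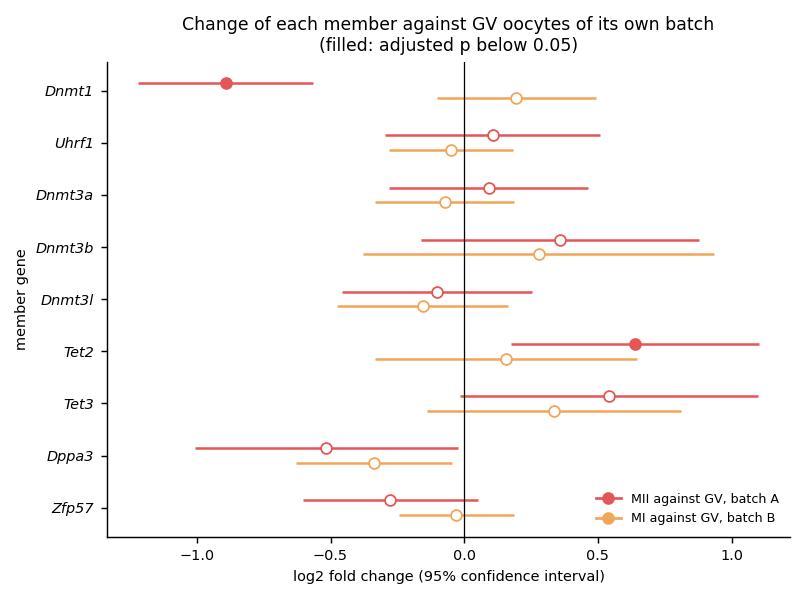
Log2 fold change of each member against GV oocytes of its own batch (horizontal axis) with 95% confidence intervals, at MII in batch A and at MI in batch B; filled points passed at an adjusted p below 0.05. Dnmt1, at −0.89, and Tet2, at 0.64, are the filled points, both at MII; with spike-in scaling Tet2 turns to −0.09.

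Between GV and MI oocytes of batch B, none of the 9 members passed (edgeR, adjusted p below 0.05), against 0.145% of the 12419 genes tested, 0.0483% lower and 0.0966% higher, and none with a fold change over 2, against 0.121%. At an unadjusted p below 0.05, 1 member, Dppa3, and 1371 genes passed, and DESeq2 passed 177 genes and no member. The 18 genes became 0 without MI oocyte 7, 97 without MI oocyte 9 and 0 with HTSeq counts, and no member passed in any of these. No member had groups that did not overlap, and neither did any other gene (0%). The median log2 change was −0.03 over the members and 0.02 over all genes tested.

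The other genes of the pathway were described by a list of 72, of which 64 were tested at MII. There 9 were higher and 4 lower, 20.3% of those tested, near the 20.6% of all genes; with spike-in scaling the share of higher among all passing genes went from 44.0% to 2.57%. In the methyl donor cycle, 3 were higher and 2 lower of 14, against 9.06% higher and 11.5% lower of all genes. Mtr, which remakes methionine, went from 43.4 ± 11.4 to 72.4 ± 6.08 CPM (SD, n = 6 each, log2 change 0.74, edgeR adjusted p = 0.00646), and Shmt2 from 20.7 to 35.6 CPM (0.78, adjusted p = 0.0110). Mat1a, which makes the methyl donor, went from 19.6 to 13.0 CPM (−0.60, adjusted p = 0.0133).

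Against the same shares of all genes, 9.06% higher and 11.5% lower, 1 of 6 maintenance genes was higher, the chromatin remodeller Hells, from 109.6 to 161 CPM (log2 change 0.55, edgeR adjusted p = 0.0100). Of 7 imprint protection genes 1 was higher, Trim28, the corepressor that Zfp57 recruits, from 90.6 to 143 CPM (0.66, adjusted p = 0.0141). Of 10 genes of the de novo context 3 were higher, among them the histone demethylase Kdm1a, from 36.7 to 56.4 CPM (0.62, adjusted p = 0.0156). Of 8 readers of methylated DNA 2 were lower, among them Zbtb38, from 16.7 to 6.70 CPM (−1.31, adjusted p = 0.0152), the single gene of the 64 tested that passed with a fold change over 2. Of 19 genes of oxidation and repair 1 was higher. With spike-in scaling the median log2 change of all genes was −0.72, and 144 of 12929 genes passed as higher. The values of the named list genes under that scaling are not reported here.

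At MI none of the 62 list genes tested passed by edgeR. The difference between the MII and MI changes passed for 2 of 66 (3.03%), against 5.46% of all genes, and these shares were not compared by a test. Both had a higher MII change: Pcna (0.72, edgeR adjusted p = 0.0371), the replication clamp, and Mat2b (0.74, adjusted p = 0.0199), a regulator of methyl donor synthesis.

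Over the 12 oocytes of batch A, the level of each member was compared with 7324 genes of at least 10 CPM on average, as a description without a test; libraries and stages are shared by all points. Dnmt1 was most like Nucb1 (Pearson r = 0.952) and Trap1 (0.929). Uhrf1 was most like Myo5b (0.964) and Pgs1 (0.961). Dnmt3a was most like Thrap3 (0.920) and Gtf2h1 (0.879), Dnmt3b like Txnrd1 (0.879) and Spint1 (0.871), and Dnmt3l like Pes1 (0.954) and Dlst (0.948). Tet3 was most like Nfe2l1 (0.993) and Ddi2 (0.979), and Tet2 like Anxa7 (0.958) and Ago3 (0.908). Dppa3 was most like Cfap300 (0.969) and Sdhc (0.950), and Zfp57 like Hpcal1 (0.937) and Eif3g (0.936). These genes were picked for the highest r over the same 12 oocytes, so values within a stage are no separate check. For Tet3 and Nfe2l1, r was 0.981 within GV oocytes and 0.998 within MII oocytes. Dnmt1 gave 0.686 within GV and 0.949 within MII oocytes with Nucb1, and 0.204 and 0.872 with Trap1. Tet2 gave 0.555 within GV and 0.931 within MII oocytes with Anxa7, and 0.524 and 0.669 with Ago3.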

How the data were processed

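RNA of 37 single oocytes was sequenced by Smart-seq2. Per the submitters' processing notes, the authors used Trim Galore 0.6.4, STAR 2.7.6a, HTSeq 0.12.4 and RSEM 1.3.1 on mm10. The authors deposited 3 tables without normalisation: the RSEM expected count of each gene, the RSEM expected count of each transcript, and the HTSeq count of each gene. Identifiers were matched to GENCODE M21 (54723 genes, 138789 transcripts), which is close to, but not, the authors' release.

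Expected counts were rounded for tests, and 92 spike-in sequences were left out. Genes and transcripts passing filterByExpr were tested within each batch with the quasi-likelihood test of edgeR 4.0.16 in R 4.3.3, with TMM normalisation and Benjamini-Hochberg adjustment over all features tested; DESeq2 1.42.0 was an alternative. The procedure was first tested on simulated counts. The difference between the MII and MI changes was tested in a model of all 4 group means. CPM were computed with TMM within each batch. TPM and transcript shares were computed from expected counts divided by annotated length. A share was tested where its mean was at least 10% in either stage, by a two-sided permutation test of the difference in means (exact in batch A), adjusted over the shares of the batch. Pearson r used log2(CPM + 1).

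The members and lists were chosen with earlier results of these data known. Named were all 9 members; up to 5 higher and 5 lower pathway genes per comparison by adjusted p; member transcripts with a mean share of at least 10% in any group; and the 2 genes most like each member. Some pathway genes that the rule names are not reported here. Alternatives covered the low-count filter, size factors, spike-in scaling, DESeq2, HTSeq counts, a fit of all 37 oocytes, a block of oocyte number and left-out oocytes. Tests, thresholds and most alternatives were set before the data were examined here, also with those earlier results known. Intervals cover the spread between oocytes, and reads carried no molecular identifiers.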

Additional observations from a re-analysis of the deposited data

Results flagged for a closer look

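In each of 122 groups of 6 or 10 oocytes (9 member levels and the transcript shares tested), the highest or lowest oocyte was compared with the others by Dixon's ratio, and 12 groups had an oocyte far from the rest. Chance flags about 1 in 20 groups. GV oocyte 1 of batch B had 231 CPM of Dnmt3a, against 105 to 171 CPM in the other 9.

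For the Dnmt1 transcripts, the share of Dnmt1-204 was 19.3% in GV oocyte 2 of batch A, against 33.9% to 40.6% in the other 5, and 26.1% in GV oocyte 7 of batch B, against 0.537% to 11.1% in the other 9. The share of Dnmt1-205 was 3.78% in GV oocyte 1 of batch A, against at most 0.451% in the other 5. Uhrf1-201 had a share of 14.0% in MII oocyte 5, against 10.2% to 11.0% in the other 5. Dnmt3a-217 had a share of 0.425% in GV oocyte 10 of batch B and 0 in the other 9.

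The scarce Dnmt3b gave 6 of the 12. Dnmt3b-202 had a share of 76.6% in MII oocyte 1, against at most 4.78% in the others. Dnmt3b-205 had 30.5% in MII oocyte 2, against 0, and Dnmt3b-208 had 26.9% in MII oocyte 4, against at most 0.596%. Dnmt3b-209 had 36.7% in MII oocyte 5, against 0. In GV oocyte 4 of batch B, Dnmt3b-205 had 56.9%, against at most 21.6% in the other 9, and Dnmt3b-206 had 43.1%, against at most 15.8%. These shares rest on few counts.

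The change of Dnmt1 differed between stages by a direct test: the MII change minus the MI change was −1.02 on the log2 scale (edgeR adjusted p = 0.00768), the single member of 9 to pass. Batch and the way of maturation cannot be told apart from stage here.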

How the results depend on the processing

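Apart from left-out oocytes and the counts of genes that passed, most values of single genes, transcripts and shares kept their direction and their side of the threshold: over all alternatives, left-out oocytes included, 863 did, 54 reversed, 23 no longer passed, 10 newly passed and 1 mean level moved. Dnmt1 passed as lower at MII in every alternative run. Where nothing else is said, the cause was not tested.

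With spike-in counts as the library size, the median log2 change at MII went to −0.72 for genes and −0.69 for transcripts. Members passing went to 4 (Dnmt1, Dnmt3l, Dppa3 and Zfp57), and all genes passing to 5596, 43.3% of those tested. Of these members 2 passed over 2-fold, against 30.3% of all genes tested. Reversed were Uhrf1 (−0.63), Dnmt3a (−0.62), Dnmt3b (−0.39), Tet3 (−0.23) and Tet2 (−0.0887). Member transcripts over 2-fold went to 5 of 29, against 19.2% of all transcripts, and all transcripts passing to 5142, 22.9% of those tested. Newly passing as lower by edgeR were Dnmt1-201 (−1.30, adjusted p = 0.00723), Zfp57-201 (−1.01, 0.00183), Zfp57-202 (−0.95, 0.00463) and Dppa3-201 (−1.40, 0.00815). Reversed were Dnmt3l-205 (−0.62), Uhrf1-201 (−0.70), Uhrf1-202 (−0.69), Uhrf1-204 (−0.52), Dnmt3a-218 (−0.65), Dnmt3b-201 (−0.0498), Tet3-202 (−0.26), Tet3-203 (−0.0506), Tet2-204 (−0.34), Tet2-206 (−0.51) and Dppa3-202 (−0.13).

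Without a low-count filter, members passing at MII went to 1 (Dnmt1), against 7.97% of all genes. Member transcripts went to 2, against 1.57% of all transcripts, of which 1 over 2-fold, against 1.36%. Dnmt3a-218 went to −0.00015. Genes passing at MI went to 44, transcripts at MI to 2, with Dnmt3a-218 at −0.0038, and genes whose MII and MI changes differ to 1600. With DESeq2, 3419 transcripts passed at MII, 177 genes and 120 transcripts at MI, and at MI Dnmt3b-201 went to 0.00055 and Zfp57-201 to 0.0013. With RLE size factors Zfp57-201 went to 0.0010 at MI.

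With HTSeq counts, Dnmt3l went to 0.0172 at MII. At MI 0 genes passed by edgeR, against 18 with RSEM and 177 with DESeq2, and Zfp57 went to 0.0554 and Tet2 to −0.0579. The MII and MI changes differed for 319 genes, with Dnmt3b at −0.0025. Leaving out MI oocytes 4, 8 and 9 as well, 0 genes passed at MI by edgeR, Uhrf1 went to 0.0260, Dnmt3a to 0.00728 and Tet2 to −0.0791, and 380 genes differed between the changes. With RSEM counts and these 3 oocytes left out, 39 genes passed at MI. That alternative, the share test without them, RLE size factors for the difference of changes and its left-out oocytes were chosen after seeing the data.

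With all 37 oocytes in a fit of stage and batch, members passing at MII went to 1 (Dnmt1), all genes at MII to 1234 and at MI to 149. Oocyte numbers do not pair oocytes across stages: deviations of the same number correlated from −0.503 to 0.454 in batch A and −0.339 to 0.259 in batch B. The block keeps the oocytes whose number occurs at both stages, so in batch B it also leaves out the MI oocytes whose number no GV oocyte has, and it tested 11930 genes and 20862 transcripts there. With the number as a block, members passing at MII went to 1 (Dnmt1), genes to 1587 and transcripts to 627, and genes at MI, with fewer oocytes as well, to 0 by edgeR. Under this block Dnmt3a-217 (0.89, adjusted p = 0.142) and Zfp57-211 (0.98, 0.112) no longer passed, and Dnmt1-205 did (3.87, 0.0473). Dnmt3l-208 went to 0.24, Dnmt3a-205 to 0.0015 and Tet2-204 to −1.27 at MII. At MI the block gave Dnmt3l 0.0011, Zfp57 0.0390, Dnmt3l-205 0.0514, Dnmt3a-203 0.0190, Zfp57-201 0.0399 and Zfp57-202 0.0113.

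Tet2 no longer passed without a filter (0.60, adjusted p = 0.244), with the block (0.62, 0.143), in the fit of 37 oocytes (0.69, 0.183) or with spike-in scaling. It passed with RLE size factors, DESeq2 (adjusted p = 0.0207) and HTSeq counts (0.0369). Its mean level in GV oocytes of batch A went to 4.92 CPM without TMM.

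Shares of counts, not divided by length, reversed 3 differences at MI: Uhrf1-201 (0.0412), Uhrf1-204 (−0.0572) and Tet3-202 (0.309), in percentage points. This alternative has no value for Dnmt1-205 in batch A, which fell below a share of 10%. Shares without MI oocytes 4, 8 and 9 reversed Tet2-206 (0.176) and Tet3-202 (0.403).

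Over the 12 fits that each left out an oocyte of batch A, 1 to 2 members and 1993 to 2575 genes passed, Dnmt1 ran from −0.95 to −0.80, Tet2 from 0.54 to 0.71, Dnmt3a from −0.0165 to 0.18 and Uhrf1 from −0.00014 to 0.19. In these fits Dnmt3l ran from −0.22 to −0.0126, Tet3 from 0.33 to 0.66, Zfp57 from −0.35 to −0.16, Dppa3 from −0.65 to −0.35 and Dnmt3b from 0.27 to 0.50. Over the 25 fits of batch B, 0 members and 0 to 97 genes passed by edgeR, Dnmt3a ran from −0.12 to 0.0185, Zfp57 from −0.0824 to 0.0172 and Uhrf1 from −0.11 to 0.0261. The lowest count came without MI oocyte 7 and the highest without MI oocyte 9. In the fits of batch B Dnmt1 ran from 0.12 to 0.26, Dnmt3l from −0.23 to −0.0465, Tet3 from 0.13 to 0.43, Tet2 from 0.0414 to 0.31, Dppa3 from −0.40 to −0.26 and Dnmt3b from 0.14 to 0.42. Genes whose changes differ went from 512 without MII oocyte 1 to 925 without MI oocyte 15, with Dnmt1 from −1.04 to −1.02.

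Without MII oocyte 1, 2 member transcripts passed, 1 over 2-fold. Of all transcripts 1511 passed, 6.47% of those tested, and 4.30% over 2-fold. Dnmt3a-205 went to 0.0154 and Dnmt3a-218 to −0.0111. Of the shares 3 passed, and Dnmt3b-206 went to 0.501 and Tet2-205 to −0.407 percentage points. Without MI oocyte 15, Zfp57-201 went to 0.0168 and the share of Tet3-202 to 0.415 percentage points.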

Other observations

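GV oocytes were present in both batches, and the make-up of some members' RNA differed between them in values that were not tested. Dnmt1-205 held a median of 0.331% of the Dnmt1 transcript level in GV oocytes of batch A (3.78% in GV oocyte 1 and at most 0.451% in the others) and 37.8% in those of batch B, and Dnmt1-204 held medians of 35.0% and 4.07%. The mean share of Uhrf1-201 was 11.9% in batch A and 49.6% in batch B. The mean share of Dnmt3a-217 was 30.3% and 0.0425%, and that of Dnmt3a-203 was 0.406% and 14.3%. By contrast Zfp57-201 (73.6% and 71.7%), Dppa3-201 (93.6% and 95.9%) and Tet3-202 (90.6% and 88.4%) were alike in both. Spike-in counts came to a mean of 0.915% of the library total in GV oocytes of batch A (0.595% to 1.49%). In MII oocytes the mean was 1.21% (0.989% to 1.42%), and in batch B the values were close to 0. The cause was not tested.

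Divided by the RSEM count, the HTSeq count of each member had a median above 1 in each group. This median was 2.15 for Dnmt1, 2.05 for Uhrf1 and 2.60 for Dppa3 in GV oocytes of batch A, against 1.34 for the library totals. For Dnmt1 in MI oocytes the median was 2.12 and the lowest 1.05, and ratios below 1 were found for Uhrf1 (lowest 0.961), Dnmt3a (0.958), Dnmt3l (0.990), Tet2 (0.921) and Tet3 (0.906), in MI oocytes 4, 8 and 9 alone.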
